A study of Mus musculus with 5 samples.

Results

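The regions described here are the 3890 DNaseI hypersensitive regions that were listed at the hemangioblast (HB) stage and at none of the other 4 stages of blood cell development from mouse embryonic stem cells (ESCs). They were chosen by presence or absence in the 5 site lists. Sites of all stages were first cut or extended to 500 bp about their centres, and 2 windows whose overlap reached 25% of their length were joined, through chains where needed. This gave 68846 regions, from which those with an HB window and no window of mesoderm (MES), hemogenic endothelium (HE), hematopoietic progenitors (HP) or macrophages (MAC) were kept. HB-only regions made up 5.65% of all regions (95% Wilson interval 5.48 to 5.83%) and 15.7% of the 24729 regions open in HB (15.3 to 16.2%). Since the lists themselves chose the members, their absence from the other lists is not a result.

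The 5 populations came from 1 ESC line (strain 129) with GFP reporting Brachyury (Bry, encoded by T), which was grown on mouse embryonic fibroblasts before differentiation in embryoid bodies. No allele differed between them, but culture time and conditions did. MES and HB cells were sorted from embryoid bodies, and FLK1+ cells were cultured further with cytokines to give the later stages. FLK1 divided the Bry:GFP+ cells into HB, which carry it, and MES, which do not. CD41 was present on HP cells and absent from HE cells, which were taken by Tie2 and cKit, and the MAC population was grown from CD41+ cells and collected by CD11b. Each stage had 1 list, and the HB list of 24729 sites stood between the longest, MAC with 37456 and HE with 33305, and the shortest, MES with 21949 and HP with 17734, while the MAC label names a pair of replicates together. ESCs were not analysed here, so that an HB-only region may or may not be open in them. The lists give start and end positions with no height or coverage, so the depth behind a site is unknown and a region that is not in a list may still be open below its threshold. With 1 list per stage there was no replicate against which to test a stage, and every interval below covers only the counting error over regions of these lists. A sorted population is a bulk sample, in which a site open in part of the cells and a site weakly open in all of them cannot be told apart.

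The hemangioblast is a mesodermal progenitor marked by FLK1, the VEGF receptor encoded by Kdr, and it can form blood, endothelial and smooth muscle cells. DNaseI cuts where nucleosomes are displaced, which happens at active promoters and at distal elements bound by transcription factors. GATA factors bind with TAL1 and LMO2 at many blood enhancers, TEAD factors are the DNA-binding partners of YAP at the end of the Hippo pathway, TCF/LEF factors are the end of the Wnt pathway, and the T-box factors Brachyury and EOMES direct mesoderm formation in the primitive streak.

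The sequences of a few members show the factor words that are described below. Most were picked for holding many words and are not typical, since 38.4% of the members searched held none. They are plus-strand sequence of GRCm38 (mm10) from RefSeq, written 5′ to 3′ in lower case, with capitals at every match, on either strand, to a word of 4 factor families. The TEAD word was ACATTCCA, with ACATTCCT, then GCATTCCA, then GCATTCCT also accepted. The GATA word was AGATAA, the T-box word was AGGTGTGA and the TCF/LEF word was ATCAAAG. Members over 2 kb from a transcription start site (TSS) and outside exons, with 1 chromosome left out, were ranked by how many kinds of word their 500 bp held, with ties settled by the wider site and then by genome position. The first 8 were 3 with all 4 kinds (Lypd1, St3gal6 and Pld5) and 5 of the many with 3 kinds. The 6 printed first are shown because at least 3 kinds lie within the 300 bp printed. In the other 2 of the 8, beside Nfe2l2 and 1700001C19Rik, the words were spread too widely for that. Each is named by the protein-coding gene with the nearest TSS.
Lypd1: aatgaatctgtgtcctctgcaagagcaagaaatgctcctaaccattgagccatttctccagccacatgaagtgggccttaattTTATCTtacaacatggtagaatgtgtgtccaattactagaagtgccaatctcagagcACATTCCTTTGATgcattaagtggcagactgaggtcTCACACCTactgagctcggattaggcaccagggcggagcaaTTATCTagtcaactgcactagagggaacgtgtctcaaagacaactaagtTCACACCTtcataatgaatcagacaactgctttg
St3gal6: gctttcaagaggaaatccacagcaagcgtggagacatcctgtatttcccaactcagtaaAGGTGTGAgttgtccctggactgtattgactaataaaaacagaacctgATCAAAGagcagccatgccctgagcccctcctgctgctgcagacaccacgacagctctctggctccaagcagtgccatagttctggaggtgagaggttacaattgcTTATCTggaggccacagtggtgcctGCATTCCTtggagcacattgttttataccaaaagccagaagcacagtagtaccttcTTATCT
Pld5: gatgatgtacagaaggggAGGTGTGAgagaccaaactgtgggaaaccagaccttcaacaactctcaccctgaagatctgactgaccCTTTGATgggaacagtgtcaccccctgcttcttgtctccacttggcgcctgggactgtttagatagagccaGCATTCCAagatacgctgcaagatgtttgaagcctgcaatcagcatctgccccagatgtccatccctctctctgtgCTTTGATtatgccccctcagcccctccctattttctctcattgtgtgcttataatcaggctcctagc
Rwdd2b: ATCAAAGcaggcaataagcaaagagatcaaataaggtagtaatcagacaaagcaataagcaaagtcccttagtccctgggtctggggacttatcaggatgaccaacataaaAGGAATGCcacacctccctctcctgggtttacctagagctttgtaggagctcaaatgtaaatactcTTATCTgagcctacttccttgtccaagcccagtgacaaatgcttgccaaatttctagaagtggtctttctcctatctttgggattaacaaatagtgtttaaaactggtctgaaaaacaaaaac
Eya1: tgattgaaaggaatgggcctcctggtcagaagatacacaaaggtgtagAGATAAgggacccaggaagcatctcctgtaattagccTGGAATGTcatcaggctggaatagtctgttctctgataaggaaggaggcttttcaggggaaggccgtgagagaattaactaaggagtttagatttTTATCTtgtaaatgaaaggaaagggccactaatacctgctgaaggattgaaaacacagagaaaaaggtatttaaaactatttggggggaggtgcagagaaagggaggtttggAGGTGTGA
Rock2: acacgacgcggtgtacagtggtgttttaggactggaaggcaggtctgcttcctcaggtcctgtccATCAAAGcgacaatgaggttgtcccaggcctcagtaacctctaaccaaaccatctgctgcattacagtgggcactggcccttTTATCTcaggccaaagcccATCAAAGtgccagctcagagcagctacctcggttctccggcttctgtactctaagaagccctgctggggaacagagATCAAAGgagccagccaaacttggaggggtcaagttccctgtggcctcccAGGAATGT

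The region named after Lypd1 (chr1:126138048-126138347 as printed) lies 225 kb upstream of that gene's TSS in an intron of Nckap5, and it held all 4 words, with 2 matches each for GATA and T-box. Its TEAD and TCF/LEF matches share bases. The nearest interval of any other stage was 179311 bp away. The region beside St3gal6 (chr16:58539018-58539317), in intergenic sequence 14.8 kb upstream, also held all 4 words. The remaining 4 held 3 words each in the 300 bp printed, that of Pld5 having the fourth outside them, and lay in an intron of Pld5 (chr1:176137748-176138047), 2.96 kb upstream of Rwdd2b (chr16:87443304-87443603), in an intron of Eya1 (chr1:14173320-14173619) and 11.7 kb upstream of Rock2 (chr12:16883116-16883415). Eya1 encodes a transcriptional co-activator of organ formation and Rock2 a kinase of the actin cytoskeleton.

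A member beside a primitive streak gene and 3 beside genes of blood specification are shown next, the first chosen after its words had been seen and the other 3 being the HB-only region nearest to the TSS of its gene. Of 7 blood genes with an HB-only region, Kdr, Meis1 and Runx1 were chosen after their words had been seen, and the regions of the other 4 (Lmo2, Gfi1, Zfpm1 and Nfe2) held none of the words. The last 3 are stretches of 200 bp.
Eomes: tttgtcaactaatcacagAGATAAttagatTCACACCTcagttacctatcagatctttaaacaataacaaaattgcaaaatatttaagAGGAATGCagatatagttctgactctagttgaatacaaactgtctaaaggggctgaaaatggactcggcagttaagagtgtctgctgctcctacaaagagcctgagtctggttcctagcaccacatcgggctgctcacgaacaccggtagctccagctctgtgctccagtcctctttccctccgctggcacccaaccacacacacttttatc
Kdr: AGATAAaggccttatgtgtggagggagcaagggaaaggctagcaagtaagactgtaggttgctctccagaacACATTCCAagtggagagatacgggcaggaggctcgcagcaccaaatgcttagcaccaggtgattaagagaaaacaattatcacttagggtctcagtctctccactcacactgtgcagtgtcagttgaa
Meis1: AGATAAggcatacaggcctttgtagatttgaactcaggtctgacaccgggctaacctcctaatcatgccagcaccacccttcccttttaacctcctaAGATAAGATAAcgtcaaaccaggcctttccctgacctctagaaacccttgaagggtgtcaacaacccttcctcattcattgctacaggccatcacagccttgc
Runx1: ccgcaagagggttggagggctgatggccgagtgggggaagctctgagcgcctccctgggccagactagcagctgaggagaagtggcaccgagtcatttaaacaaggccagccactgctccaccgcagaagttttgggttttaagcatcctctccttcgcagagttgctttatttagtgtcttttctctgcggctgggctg

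The region of Eomes (chr9:118421851-118422150) lies 56.2 kb upstream of the gene in an intron of Platr11 and holds TEAD, GATA and T-box words. The region of Kdr (chr5:75954246-75954445), in an intron 24 kb downstream of the TSS, holds a TEAD and a GATA word. The region of Meis1, a homeobox cofactor gene of hematopoietic stem cells (chr11:18957239-18957438), lies in an intron 61.6 kb downstream and holds 3 GATA words. The region of Runx1, the regulator of the endothelial to hematopoietic transition (chr16:92697947-92698146), lies in an intron 0.718 kb upstream of one of the gene's start sites, and its printed stretch has none of the 4 words. That Runx1 region was also covered in full by a deposited interval of another stage.

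Most HB-only regions stood well apart from the sites of other stages, and a minority touched them. The median distance to the nearest deposited interval of another stage was 6043.5 bp, and 3224 members (82.9%) had none within 1 kb. On the scale of the rule, 3707 windows had no overlap with a window of another stage, and 183 (4.70%) overlapped one by less than would have joined them, 54 of these by 20 to 25% of the window. Just outside the rule, 65 regions shared by HB and another stage had a largest overlap of 25 to 30% of the window, and 20400 overlapped by 50% or more. Many deposited intervals are wider than their windows, and 360 members (9.25%) overlapped a deposited interval of another stage, and 225 (5.78%) had at least 250 bp of their 500 bp inside one. HE intervals accounted for 297 of the 360, MES intervals for 79, MAC intervals for 38 and HP intervals for 30, some members touching several. The same share was 12.3% for MES-only, 9.51% for HE-only, 14.9% for HP-only and 4.57% for MAC-only regions. The part of these touching members in each result below was measured where the isolated members, those with no such interval within 1 kb, are quoted.

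HB-only sites were narrower than other HB sites. Width is the only property of a site that the lists give, and it comes in steps of 100 bp. The median HB-only site spanned 600 bp (quartiles 500 and 800 bp, from 100 to 2500 bp), against 1000 bp for the 20839 HB regions shared with any other stage, 800 bp for those shared with MES alone and 700 bp for those shared with HE alone. Only 676 members (17.4%) reached the median of 900 bp of the whole HB list, against 64.4% of the shared regions. In their own lists, MES-only sites had a median of 400 bp, HP-only and MAC-only sites of 500 bp, and HE-only sites of 900 bp.

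Of the 10 widest members, 8 overlapped an interval of another stage and the other 2 lay 22 and 2 bp from one. They were found beside Ninj2 and Mesp1 (2500 bp each), Ppp1r15b, Crb2 and Grik3 (2300 bp each), and Lrig3, Ank2, Dnah6, Gm4559 and Smad6 (2200 bp each). Mesp1 encodes a master regulator of cardiovascular mesoderm, and its site (region chr7:79797959-79798458) lay 4.62 kb upstream in intergenic sequence. Split by the quartiles of width, 5.87%, 5.48%, 6.93% and 17.4% of members touched an interval of another stage from the narrowest to the widest group, so touching moved with width in the widest group. The part of width in it was not tested.

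HB-only regions lay mostly away from promoters. Within 2 kb of a protein-coding TSS there were 452 members (11.6%, 10.7 to 12.7%), between 2 and 20 kb 1233 (31.7%, 30.3 to 33.2%), and beyond 20 kb 2205 (56.7%, 55.1 to 58.2%). The split depends on the TSSs used. With those of all transcripts in place of curated protein-coding ones, 19.8% were within 2 kb, 46.9% between 2 and 20 kb, then the largest class, and 33.3% beyond. The promoter share of the HB regions shared with other stages was 54.1%, which the HB-only share missed by 42.5 points (Newcombe 95% interval of the difference -43.7 to -41.3). Against the other single-stage sets, the promoter share of HB-only regions was lower than that of MES-only regions (16.2%, difference -4.53 points, -6.24 to -2.86) and of HE-only regions (16.2%, difference -4.60, -5.78 to -3.36). It was higher than that of MAC-only regions (6.51%, difference 5.11, 4.09 to 6.21), and its difference from HP-only regions was -0.149 points, with an interval from -2.10 to 1.69. The share beyond 20 kb exceeded that of MES-only regions by 9.36 points (6.94 to 11.8) and that of HE-only regions by 2.81 points (1.00 to 4.60). Its difference from MAC-only regions was -0.0273 points (-1.73 to 1.66).

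By annotation, the middle of 1856 members (47.7%) lay in an intron, of 1536 (39.5%) between genes, of 360 (9.25%) in a non-coding part of an exon and of 138 (3.55%) in a coding exon. CpG-rich sequence, with at least 50% GC and at least 0.6 of the CpG dinucleotides that base composition would give, was found in 288 members (7.40%, 6.62 to 8.27%). This compared with 49.5% of the HB regions shared with other stages and 11.2% of MES-only regions, a difference from the latter of -3.79 points (-5.24 to -2.38). Among isolated members the promoter share was 6.98% and the CpG-rich share 4.81%, both lower than over all members.

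**Figure D1:**
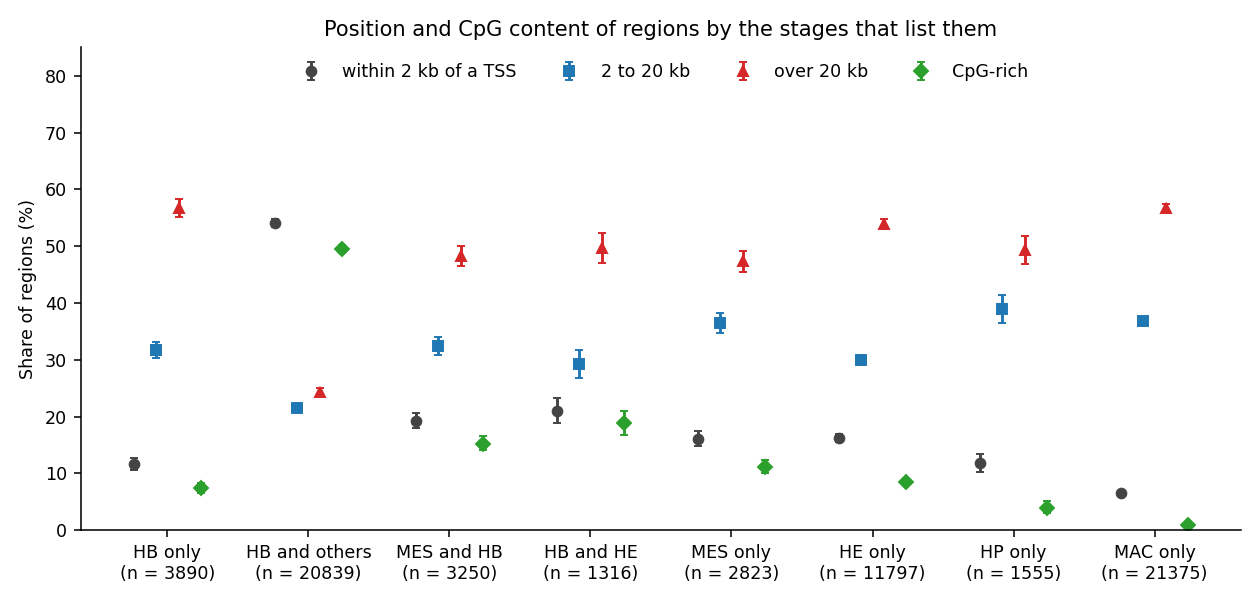
Position and CpG content of regions by the stages that list them. The vertical axis is the share of regions in percent, with 95% Wilson intervals as bars, for regions within 2 kb of a TSS, 2 to 20 kb away, over 20 kb away, and CpG-rich, and n is the number of regions with sequence in the reference. HB-only regions have 56.7% beyond 20 kb and 11.6% at promoters, while HB regions shared with other stages have 54.1% at promoters.

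Along the genome, HB-only regions were spread over all chromosomes except Y, where 0 of 9 HB regions were HB-only. As a share of the HB regions of a chromosome they ranged from 12.3% on chromosome 11 to 18.6% on chromosome 1 (Y apart), with 70 of 510 (13.7%) on X. Another HB-only region lay within 50 kb of 1374 members (35.3%) and within 5 kb of 174 (4.47%). The nearest region of any kind was HE-only for 887 members (22.8%, where HE-only regions are 17.1% of all regions), MAC-only for 845 (21.7%, of 31.0%) and HB-only for 380 (9.77%, of 5.65%). The median distance to that neighbour was 6.17 kb.

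The densest groups of HB-only regions, counted within 50 kb, held 4 or 5 members each, and 4 groups are described. On chr19:37656431-37704180, 5 of 10 regions were HB-only, and their nearest genes were Cyp26c1 and Cyp26a1, which encode enzymes that degrade retinoic acid. On chr2:173245348-173281947, 5 of 7 regions were HB-only, 4 of them nearest to Pmepa1, which encodes an inhibitor of TGF-β signaling, and 1 nearest to Zbp1. On chr11:57904157-57933606, 4 of 6 were HB-only, with Hand1 and Larp1 as nearest genes, the former a bHLH regulator of heart and extra-embryonic mesoderm. In an intron of Cradd (chr10:95227277-95258676), 4 of 6 regions were HB-only.

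The next question was which factor words the HB-only regions hold. Words of 24 factor families were searched on both strands of the central 500 bp in the 3438 members over 2 kb from a TSS, and in the same way in the 48907 other regions over 2 kb from a TSS. Each of the GATA, TEAD, TCF/LEF and T-box words was held by a larger share of HB-only regions than of the other regions, of MES-only regions, of HE-only regions and of the HB regions shared with other stages.

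The GATA word was in 1436 HB-only regions (41.8%), against 26.3% of all other regions, a difference of 15.5 points (13.8 to 17.2). MES-only regions had it in 18.1% (difference 23.6 points, 21.4 to 25.9), HE-only regions in 34.5% (7.28 points, 5.39 to 9.18) and HB regions shared with other stages in 25.5%. HP-only regions had it in 44.5%, and the difference of -2.77 points had an interval of -5.87 to 0.327. Thus the GATA share was high in HB-only, HE-only and HP-only regions and low in MES-only and MAC-only regions (21.0%). The composite of a TAL1 half-site and GATA, which contains most of the GATA word, was in 6.40% of HB-only regions, against 2.49% of MES-only, 7.31% of HE-only and 17.4% of HP-only regions. The composite thus fell short of HP-only regions by 11.0 points, whereas the interval for the plain GATA word included 0.

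The TEAD word was in 683 HB-only regions (19.9%), against 11.9% of all other regions (difference 7.93 points, 6.60 to 9.32). It exceeded MES-only regions (12.7%) by 7.15 points (5.24 to 9.02), HE-only regions (15.9%) by 3.96 points (2.47 to 5.50) and HP-only regions (14.6%) by 5.29 points. In HB regions shared with HE alone it was in 23.3%, and the GATA word in 40.7%. The TCF/LEF word was in 501 HB-only regions (14.6%), against 7.30% of all other regions (7.27 points, 6.11 to 8.51), 8.66% of MES-only regions (5.91 points, 4.26 to 7.53) and 7.64% of HE-only regions (6.93 points). HB regions shared with MES alone had it in 14.1%. The T-box word was in 233 HB-only regions (6.78%), against 2.24% of all other regions (4.54 points, 3.73 to 5.44), 4.39% of MES-only regions (2.38 points, 1.18 to 3.55) and 1.64% of HE-only regions (5.14 points). In regions shared with MES alone it was in 6.67%. HB-only regions thus stood below the regions shared with HE alone for TEAD (difference -3.43 points, -6.39 to -0.603), while for GATA the interval included 0 (1.06 points, -2.38 to 4.44). Against the regions shared with MES alone it also included 0, for TCF/LEF (0.499 points, -1.29 to 2.27) and for T-box (0.103 points, -1.19 to 1.36). Among isolated members the 4 shares were 41.9% for GATA, 20.1% for TEAD, 14.8% for TCF/LEF and 6.64% for T-box, and among members at or above the median HB width they were 49.2%, 15.8%, 16.7% and 9.06%. The TEAD share of these wide members was thus not above that of HE-only regions or of shared HB regions (16.0%).

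The homeobox word TAATTA was in 14.6% of HB-only regions (13.5 to 15.9%), 5.80 points above all other regions, 3.73 above MES-only and 7.09 above HE-only regions. HB regions shared with MES alone had it in 13.8% (12.5 to 15.1%), close to the HB-only share. The OTX/GSC word GGATTA was in 19.4%, within 0.276 points of MES-only regions (-1.80 to 2.32), while regions shared with MES alone had it in 20.7%. Its reversed spelling ATTAGG has the same bases in the opposite order and serves as a comparison for base composition. That spelling exceeded the other regions by 5.16 points, about as much as the word itself. Since ATTAGG keeps the bases ATTA, which TAATTA also holds, it is not independent of these words. Reversed spellings of the GATA, TEAD, TCF/LEF and T-box words differed from the other regions by -2.54, -0.564, -0.945 and 0.226 points. Against single sets some reversed spellings also differed. Reversed T-box words exceeded MES-only regions by 1.02 points (0.16 to 1.84), a ratio of 1.47 where the word itself had 1.54, and reversed TCF/LEF words did so by 1.17 points (0.0468 to 2.25). Reversed GATA words exceeded HB regions shared with other stages by 3.50 points (2.11 to 4.94), and reversed TCF/LEF words by 0.880 points (0.0608 to 1.77). The part of base composition in those contrasts was not tested further.

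Words of later blood and endothelial factors were each less frequent than in the regions of at least 1 stage that follows, and the AP1 word than in those of all 3. The ETS word CAGGAAGT, searched with CCGGAAGT, was in 6.81% of HB-only regions, above MES-only regions by 2.33 points, and its difference from HE-only regions (14.8%) was -7.95 points, while that from HP-only regions was -0.993 points (-2.73 to 0.587). The SOX word was in 9.28%, against 19.6% of HE-only and 8.31% of HP-only regions, and the AP1 word in 10.2%, against 19.4% of HE-only, 18.7% of HP-only, 27.1% of MAC-only and 10.0% of MES-only regions. Reversed AP1 words were also less frequent, in 7.36% of HB-only, 9.06% of HE-only, 8.45% of HP-only and 11.2% of MAC-only regions. The RUNX word was in 18.3%, against 34.6% of HP-only, 19.6% of HE-only and 16.6% of MES-only regions, and its difference from HE-only regions was -1.30 points (-2.79 to 0.233). The PU.1 word GAGGAAGT was in 4.04%, against 14.6% of MAC-only, 6.62% of HE-only and 4.37% of HP-only regions. The CTCF word was in 1.69%, against 3.80% of MES-only and 0.516% of HE-only regions, and the octamer bound by OCT4 in 3.00%, against 5.75% of MES-only regions. The MEF2 word was in 4 HB-only regions (0.116%), against 0.691% of all other regions. A word match is a description of sequence and shows no binding.

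**Figure D2:**
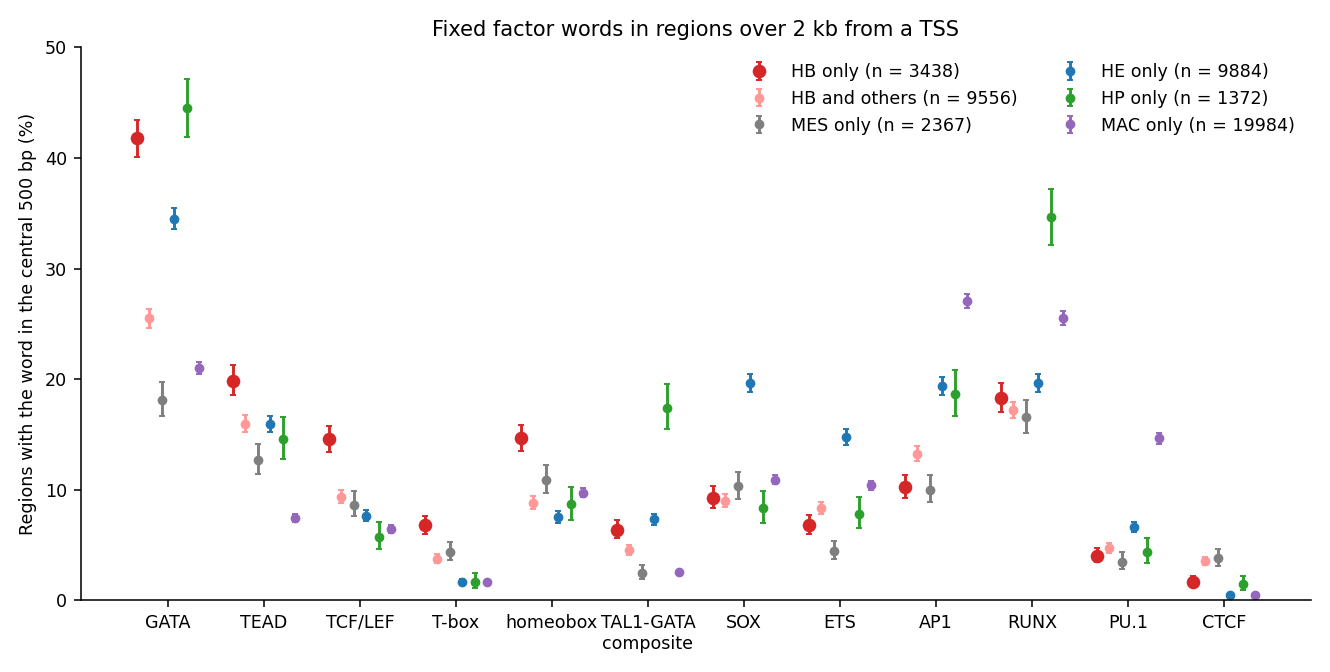
Share of regions over 2 kb from a TSS whose central 500 bp hold each of 12 factor words. The vertical axis is percent of regions with 95% Wilson intervals, and colours are the stages that list the region, with the number of regions in the key. HB-only regions have the highest TEAD, TCF/LEF, T-box and homeobox shares of the 6 sets drawn, and stand second to HP-only regions for GATA.

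The 4 leading words lay near the middle of HB-only regions. Within 100 bp of the centre the TEAD word occurred 71.3 times per 100 regions per kb, and 500 to 1000 bp away 17.0 times, a ratio of 4.20, against 2.45 in MES-only, 2.27 in HE-only and 3.01 in shared HB regions. The T-box ratio was 3.66 (19.9 over 5.44), against 1.92 in MES-only and 0.649 in HE-only regions. The TCF/LEF ratio was 2.84 (44.5 over 15.7), against 1.47 in MES-only and 0.918 in HE-only regions. The GATA ratio was 2.64 (152 over 57.8), against 0.673 in MES-only, 1.45 in HE-only and 2.88 in HP-only regions. GATA words in MES-only regions, and T-box and TCF/LEF words in HE-only regions, were thus no denser at the centre than in the flanks, unlike in HB-only regions. The ETS ratio was 1.75, against 4.63 in HE-only regions, and the SOX ratio 0.740, against 2.21. The highest ratio, 8.57 for CTCF, rested on 36 matches at the centre and 21 in the flanks.

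**Figure D3:**
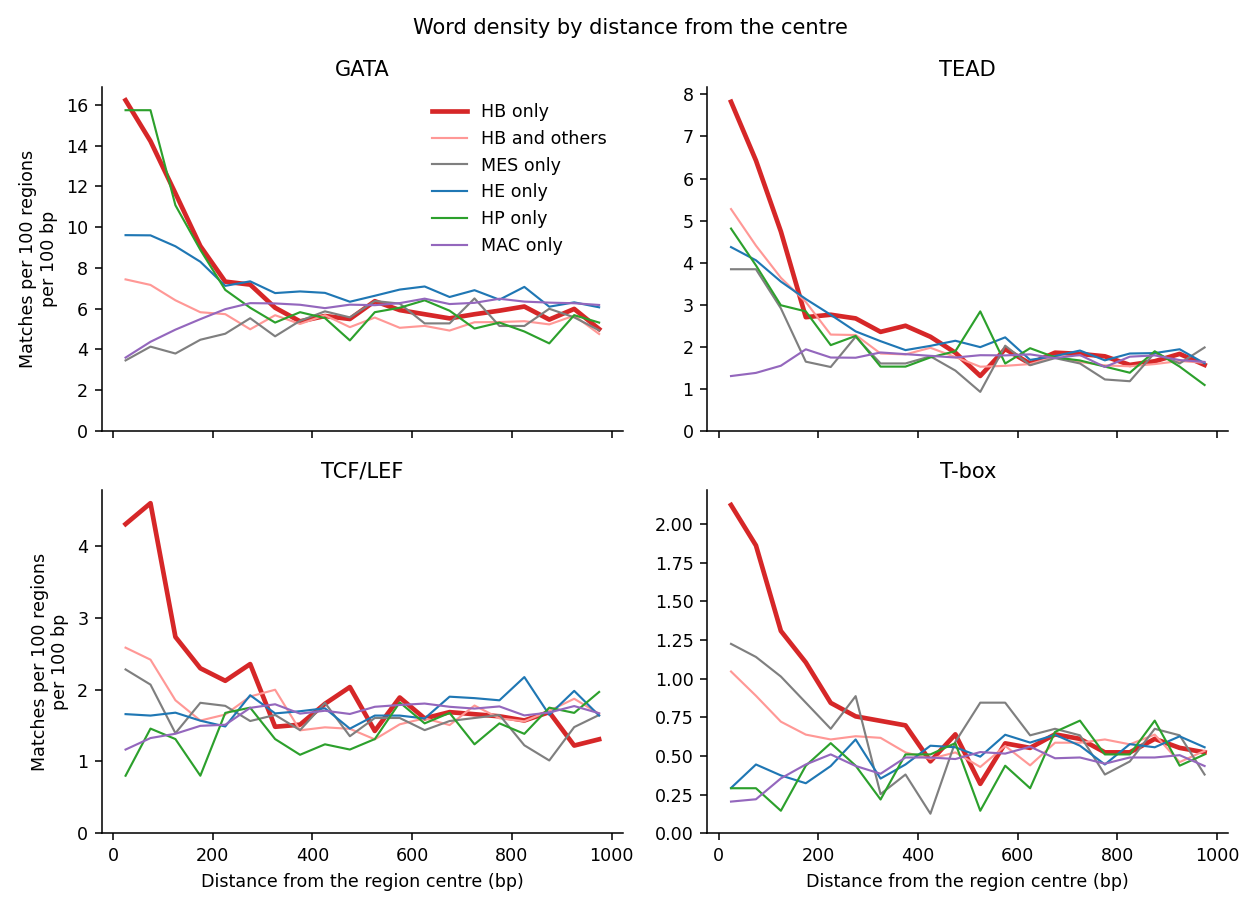
Density of 4 factor words by distance from the region centre, up to 1000 bp, in regions over 2 kb from a TSS. The vertical axis is matches per 100 regions per 100 bp, both sides and both strands together, on a scale of its own for each word. The HB-only line starts highest for TEAD, TCF/LEF and T-box, runs beside HP-only for GATA, and falls to the level of the other sets beyond 500 bp.

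Several words often shared a region. None of the 4 words was in 1319 HB-only regions (38.4%), 1 kind was in 1457 (42.4%), 2 kinds were in 594 (17.3%, 16.1 to 18.6%), 3 kinds in 64 and all 4 in 4 regions. Of all other regions, 59.4% had none and 6.31% had 2 kinds. MES-only regions without any made up 62.9%, HE-only regions 50.4% and HP-only regions 43.2%. TEAD and GATA words met in 326 HB-only regions (9.48%, against 3.46% of all other regions), where the product of their separate shares would give 285. For GATA with TCF/LEF the numbers were 220 found and 209 from the product, for GATA with T-box 101 and 97.3, for TEAD with TCF/LEF 85 and 99.5, for TEAD with T-box 44 and 46.3, and for T-box with TCF/LEF 34 and 34. TEAD with GATA thus stood above the product and TEAD with TCF/LEF below it. TEAD and GATA also met more often than the product in HB regions shared with other stages, in 472 regions against 389. The same held for all other regions together, with 1694 against 1534, so it was not particular to HB regions. In HE-only regions the numbers were 543 and 542.

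A view that used no list of factors gave related words. Of all words of 6 bases, each counted with its reverse complement as 1 word, 72 were in a share of HB-only regions at least 25% larger than that of all other regions, which is 3.46% of words, and 166 (7.98%) were in at most 80% of that share. The first rank went to GATAAG, in 33.6% against 19.0% of regions (1.77-fold). The homeobox word TAATTA followed (1.66-fold), and AGATAA ranked 3 (1.59-fold). AGGTGT, the start of the T-box word, ranked 6 with 31.7% against 21.0%, but MES-only regions had it in 32.2%. ATCAAA, from the TCF/LEF word, ranked 15 (1.41-fold), and CATTCC, the core of the TEAD word, ranked 58 (1.26-fold). At the other end, GGAAGT, the core of ETS words, ranked 2066, near the end, with 30.7% against 45.2% (0.678-fold). In the central 200 bp, 184 words (8.85%) passed the same fold, and the same 3 words again held the first 3 ranks.

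Regions were then assigned to the protein-coding gene with the nearest TSS, up to 100 kb away. Of the 3890 members, 3109 had such a gene, and they were 5.21% of the 59682 regions assigned in this way. They fell to 2475 of 21000 genes (11.8%), 480 genes (2.29%) had 2 or more, and 11 genes had 5 or 6. Counting only regions within 20 kb gave 1520 genes (7.24%), and counting every gene with a TSS within 50 kb of a member gave 4239 genes (20.2%). Plekha7, which encodes a protein of adherens junctions, had 6 HB-only regions of 12 regions in all, spread over the gene and its upstream side. Cradd, a death domain adaptor gene, had 6 of 18 and Tle3, a co-repressor gene of the Wnt and Notch pathways, 6 of 34.

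The other genes among the first 10 had 5 each. They were Pmepa1 (of 9 regions), Sfrp1, a secreted Wnt inhibitor (of 10), Gli2, a Hedgehog transcription factor (of 11), Cd82, a tetraspanin (of 13), Pax7, a regulator of neural crest and muscle precursors (of 13), Tbx2 (of 16) and Tbx3 (of 24), T-box repressors of the heart and limb. Dlc1, with 5 of 26, was the eleventh. GATA words were held by 4 of the 6 members of Tle3, by 3 of the 5 at each of Sfrp1, Tbx2 and Tbx3, and by 3 of the 4 searched at Gli2, beside 41.8% of all searched members. At the other genes they were held by fewer, with 2 of 5 at Pax7, 1 of 5 at Pmepa1, 1 of the 4 searched at Plekha7 and 0 of the 4 searched at Cd82. The 6 members of Cradd all lay in introns of the gene, and 1 of them held any of the 4 words, GATA with TCF/LEF.

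**Figure D4:**
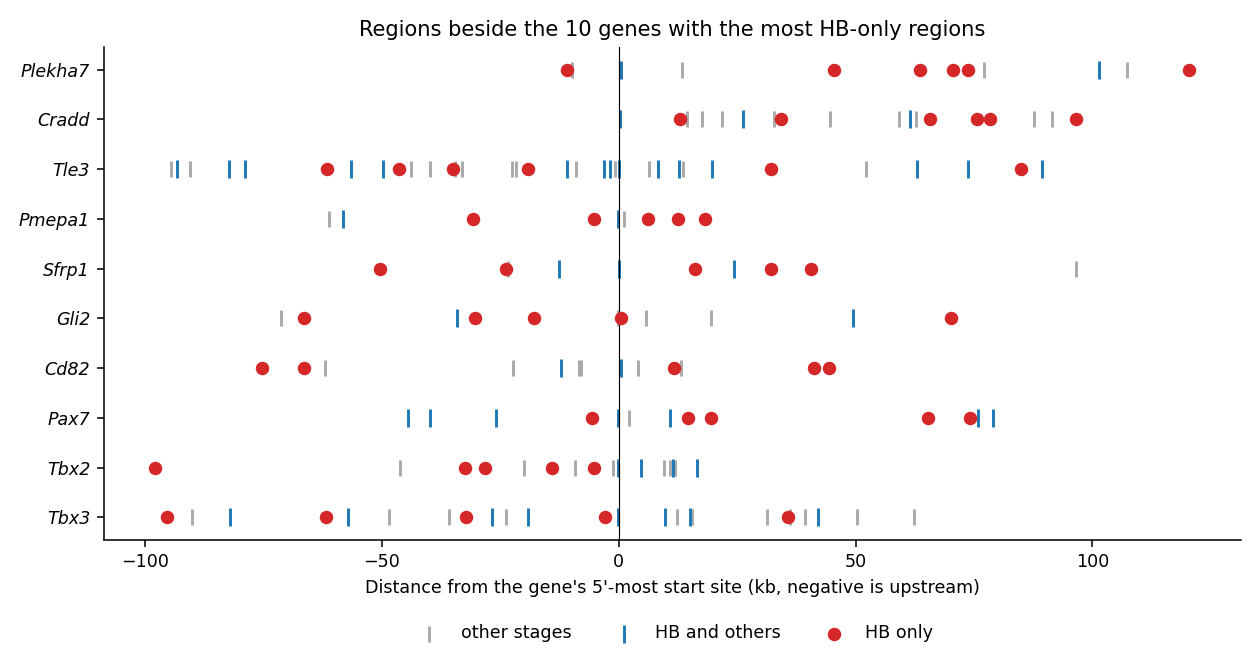
Regions assigned to the 10 genes with the most HB-only regions. The horizontal axis is the distance in kb from the gene's 5′-most start site, negative upstream, with red dots for HB-only regions, blue marks for HB regions shared with other stages and grey marks for regions of other stages. Every gene drawn has 5 or 6 red dots, spread between other marks, and a gene such as Plekha7 reaches beyond 100 kb because it has further start sites.

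By function, HB-only regions took the largest shares of the regions beside genes of cardiac and lateral mesoderm and of the primitive streak. Beside blood and endothelial genes the intervals of their shares included the share over all genes. The order of the first lists rests on the nearest gene. With every gene within 50 kb of a region counted, which gives an HB-only share of 4.42% over all genes, the cardiac list still led with 15.8%, but the primitive streak list, with 10.6%, stood below the pluripotency list with 12.4% and about level with the Wnt list with 10.6%. The blood list then had 5.62% (3.43 to 9.06%) and the endothelial list 3.41% (1.86 to 6.17%), both with intervals that include 4.42%. The 13 gene lists used were chosen with earlier results of these data known, so their counts are descriptions. For cardiac and lateral mesoderm, 13 of 20 genes (65%) had at least 1 HB-only region, against 11.8% of all genes, and 32 of the 170 regions assigned to them were HB-only (18.8%, 13.7 to 25.4%, against 5.21% of all assigned regions). For the primitive streak, 14 of 22 genes (63.6%) had one, and 21 of 131 regions were HB-only (16.0%, 10.7 to 23.3%), where 7.63% were MES-only and 10.7% HE-only, against 4.10% and 17.1% of all regions. Genes differ in how many regions of any kind they have, so the share of regions stands beside each count of genes. MES-only, HE-only and MAC-only shares are set here and below beside all merged regions, assigned or not, unlike the 5.21%.

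The primitive streak genes with HB-only regions covered inducers, factors and targets. Among signals, Fgf3 had 3 of 7 regions, Wnt3 1 of 10 and Lefty2, a Nodal antagonist, 1 of 4. Among T-box genes, T itself had 1 of 7, 12.5 kb upstream with a TCF/LEF word, and Eomes 3 of 15. The bHLH genes Mesp1 and Mesp2 had 1 of 7 and 1 of 3, and that of Mesp2, 8.07 kb upstream, held a T-box word. Gsc, a homeobox gene of the organizer, had 2 of 9, 19.1 and 28.7 kb upstream, both with GATA words. Evx1 had 2 of 8, Lhx1 2 of 9, Cdx4 1 of 2, Foxc1 1 of 9, Snai1, a regulator of epithelial to mesenchymal transition, 1 of 10, and Sp5, a Wnt target, 1 of 5. No HB-only region was assigned to Mixl1, Tbx6, Msgn1, Fgf8, Cdx1, Cdx2, Nodal or Foxc2. Of the 20 members of this list searched, 8 held GATA, 5 TEAD, 6 TCF/LEF and 4 T-box words, and 7 held none. Over all searched members the shares were 41.8%, 19.9%, 14.6%, 6.78% and 38.4%.

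Among cardiac and lateral mesoderm genes, the T-box genes Tbx2 and Tbx3 led with 5 each, and Bmp2, a ligand that induces heart mesoderm, followed with 4 of 14. Tbx5 and Gata6 had 3 each, of 9 and 10 regions. Gata5, Hand1, Smarcd3, a chromatin remodeler subunit of the heart, and Tnnt2, a cardiac troponin, had 2 each. The HE-only share of this list's regions was 26.5%, where HE-only regions make up 17.1% and HB-only regions 5.65% of all regions. Nkx2-5, Gata4, Tbx20 and Mef2c had none.

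Signaling genes were counted next. For Wnt, 18 of 31 genes (58.1%) had an HB-only region, and 31 of 249 regions were HB-only (12.4%, 8.91 to 17.1%), against 11.8% of all genes and 5.21% of all assigned regions. Besides Tle3 they included Nkd1, a Wnt inhibitor, with 3 of 11, Wnt2b with 2 of 7 and Wnt2 with 2 of 5. GATA words were in 15 of the 26 members of this list over 2 kb from a TSS, and TCF/LEF words in 3, beside 41.8% and 14.6% of all searched members. For BMP ligands, receptors, SMADs and their targets, 12 of 21 genes (57.1%) had one, and 22 of 185 regions were HB-only (11.9%, 7.99 to 17.3%, against the same 11.8% and 5.21%), led by Bmp2 and Msx2, a BMP target, with 4 of 13, and then Bmp7 with 2 of 6 and Id4 with 2 of 5. Here 13 of the 20 searched held GATA words and none held a T-box or TCF/LEF word.

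For the Hippo pathway and its TEAD factors, 6 of 25 genes (24%, against 11.8% of all genes) had an HB-only region. Of their 140 regions, 9 were HB-only (6.43%, 3.42 to 11.8%), which is near the 5.21% of all assigned regions. Tead1 had 3 of 15, Amotl2, a YAP-binding scaffold, 2 of 13, and Yap1, Tead3, Amot and Amotl1 1 each. Of these 9 regions 5 held TEAD words, where 19.9% of all searched members do, among them both of Amotl2 (chr9:102734101-102734600 and chr9:102766851-102767350) and 2 in Tead1. The known YAP targets Ccn1, Ccn2 and Ankrd1 had none.

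Beside genes of blood specification, 11 of 212 regions were HB-only (5.19%, 2.92 to 9.05%), beside 5.21% over all genes, while 21.2% were HE-only and 27.4% MAC-only, against 17.1% and 31.0% of all regions. At least 1 HB-only region was found at 7 of 22 genes (31.8%, against 11.8% of all genes). Kdr had 3 of 24, in an intron and at 26.5 and 30.2 kb upstream, and all 3 held GATA words. Of 10 searched members of this list, 4 held GATA words and 6 no word, beside 41.8% and 38.4% of all searched members. Runx1 had 3 of 31, of which the member near a start site touched an interval of another stage and the others held none of the 4 words. Lmo2, Meis1, Gfi1, Zfpm1 and Nfe2 had 1 each, and of these 5 members only that of Meis1 held any of the 4 words, while the member of Nfe2 lay in a coding exon and touched an interval of another stage. Tal1, Gata2, Fli1, Etv2, Erg, Spi1 and the other 9 genes of the list had none.

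Beside endothelial genes, 7 of 221 regions were HB-only (3.17%, 1.54 to 6.39%, an interval that includes the 5.21%), and 29.0% were HE-only, against 17.1% of all regions. At least 1 HB-only region was found at 5 of 28 genes (17.9%, against 11.8% of all genes). Nrp2, a VEGF and semaphorin co-receptor, had 3 of 14, and Nrp1, Flt1, Ets1 and Aplnr 1 each. None of the 6 searched held any of the 4 words, which 38.4% of all searched members lack. For smooth muscle, the other fate of the hemangioblast, 3 of 59 regions were HB-only (5.08%), 2 beside Tpm1 and 1 beside Tagln.

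Lists of other cells that an embryoid body or its cultures can hold were counted in the same way. Pluripotency genes had 11 of 84 regions HB-only (13.1%, 7.47 to 21.9%, against 5.21% of all assigned regions) at 8 of 16 genes (50%, against 11.8% of all genes), led by Prdm14 with 3 of 7 and Sall4 with 2 of 11, but Pou5f1, Nanog, Klf2 and Klf4 had none. Neural genes had 5 of 57 (8.77%, 3.81 to 18.9%), 3 of them beside Sox1, and endoderm genes 6 of 73 (8.22%, 3.82 to 16.8%), 3 of them beside Gata6, which the cardiac list also holds, and both intervals include the 5.21%. Macrophage genes had 5 of 112 (4.46%), where 55.4% were MAC-only, against 31.0% of all regions. Fibroblast genes, which mark the feeder cells, had 0 of 29, which allows a share of up to 10.3% if the limit is set at 3 counts, and of up to 11.7% by the Wilson interval used for the other lists. HB cells were sorted for Bry:GFP and FLK1, and the lists do not give the purity of that sort. The part of other cells in the HB list was not tested.

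**Figure D5:**
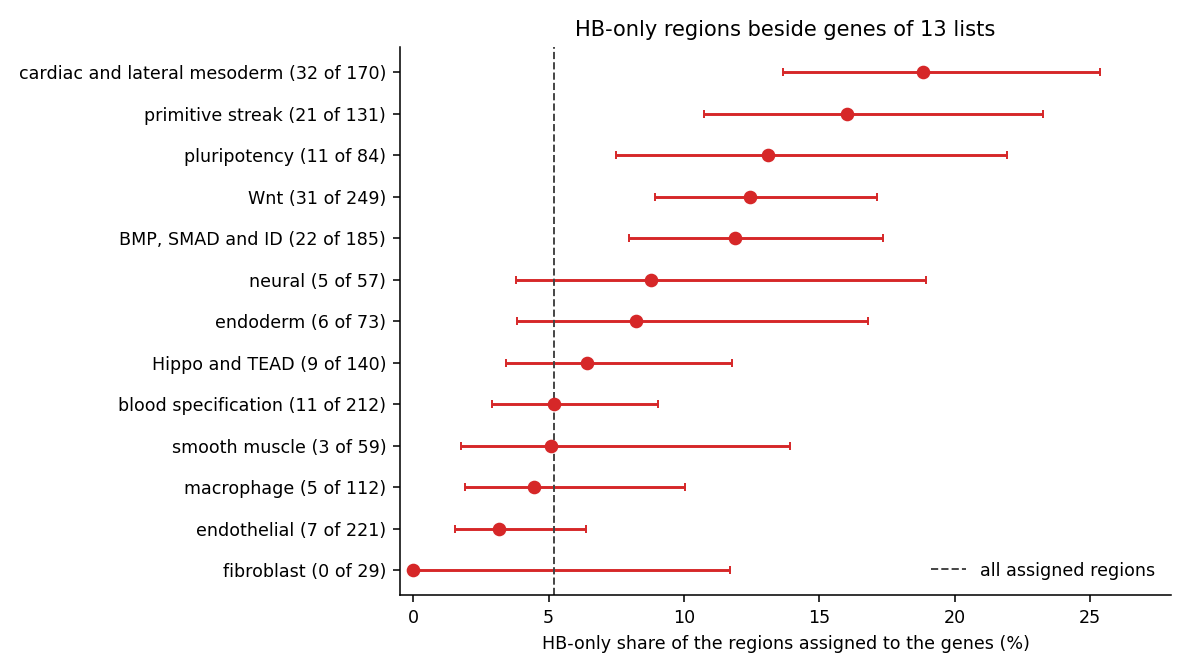
HB-only share of the regions assigned to the genes of 13 lists. The horizontal axis is percent of the regions assigned to the genes of a list, with 95% Wilson intervals, the numbers of regions stand beside each name, and the dashed line marks the 5.21% of all assigned regions. The intervals of the cardiac and lateral mesoderm, primitive streak, pluripotency, Wnt and BMP lists lie above the line, and those of the other 8 lists include it.

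Over all lists, 154 HB-only regions were assigned to a list gene, and 22 (14.3%, against 9.25% of all members) touched an interval of another stage. Of the 136 searched for words, 66 (48.5%) held GATA, 29 TEAD, 17 TCF/LEF and 10 T-box words, and 50 held none. Over all searched members the shares were 41.8%, 19.9%, 14.6%, 6.78% and 38.4%. Of the 18 within 2 kb of a TSS, 12 touched an interval of another stage, 8 of them with at least 250 of their 500 bp inside it. Those 12 lay at Prdm14, Tcf7 (2 regions), Wnt5a, Runx1, Bmp7, Cer1, Lin28a, Msx1, Pdgfra, Fgf3 and Nrp1. The 6 that did not touch one lay at Wnt2b, Hes5, Smarcd3, Tbx5, Zfp42 and Nkd1. The region of Zfp42, a gene of pluripotent cells, was 300 bp wide and 43601 bp from any other stage, and that of Tbx5 400 bp wide and 3124 bp away. With isolated members alone, which are 4.20% of assigned regions, the HB-only share was 15.3% for the cardiac, 12.2% for the primitive streak, 9.64% for the Wnt, 9.19% for the BMP, 8.33% for the pluripotency and 3.77% for the blood list. The interval of the pluripotency list then ran from 4.10 to 16.2% and included the 4.20%.

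The 452 promoter members fell at 445 genes. In 178 of them (39.4%) HB alone had a site within 1 kb of the gene's start sites, and in 85 (18.8%) HB and HE did. CpG-rich sequence made up 199 (44.0%), and 269 (59.5%) lay within 500 bp of the TSS. Genes with a site of HB alone within 1 kb numbered 185, which is 0.881% of all genes. Members were chosen for lacking a window of another stage, so their high share of HB alone is favoured by the rule and is not a result.

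Away from promoters, the nearest gene of an HB-only region usually had an open promoter in HB. Of 2657 members over 2 kb from a TSS with an assigned gene, 1903 (71.6%, 69.9 to 73.3%) had a gene with an HB site within 1 kb of a start site, where 57.6% of all genes have one. For MES-only regions and MES sites the same share was 69.3% (difference 2.35 points, -0.310 to 5.03), for HE-only regions and HE sites 78.8% (-7.21 points, -9.17 to -5.29), for HP-only regions and HP sites 69.0% (2.59 points, -0.520 to 5.76), and for MAC-only regions and MAC sites 66.2% (5.44 points, 3.56 to 7.27). The share of all genes with such a site also differed between stages, with 56.0% for MES, 60.3% for HE, 49.0% for HP and 48.6% for MAC, so these differences are not measured from the same level. With sites taken within 2 kb, the difference from MES-only regions was 3.55 points (0.939 to 6.18), an interval that no longer included 0. The promoter was open in all 5 stages for 42.4% of these members (42.3% of all genes), in no stage for 18.6% (33.9% of all genes), and in MES, HB and HE for 9.45% (3.94% of all genes). Promoters listed in MES, HB and HE but not in HP or MAC were thus more frequent beside HB-only regions than among all genes, and HB regions shared with other stages had them in 6.54%. Promoters listed in no stage were less frequent than among all genes beside every set, with 17.5% for shared HB, 19.9% for MES-only, 15.8% for HE-only, 12.3% for HP-only and 15.1% for MAC-only regions.

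Promoter sites of marker genes followed the sorting in part. The T promoter was listed in MES and HB alone, Tek and Cdh5, endothelial genes, in HE alone, and Itgam and Csf1r in MAC alone. The promoter of Kdr, whose product FLK1 separates HB from MES, was listed in all 5 stages, including the FLK1- MES cells. That of Itga2b, which encodes CD41, was listed in HP and also in HE, which was sorted as CD41-. The promoter of Pou5f1 was listed in MES alone, those of Nanog, Eomes and Mixl1 in MES, HB and HE, and that of Sox17 in HB, HE and HP. Gata1 had no listed promoter site in any stage, HP included.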

How the data were processed

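DNaseI-seq of sorted cells gave 1 list of sites per stage, and the authors deposited only the start and end position of each site. Per the study's methods, trimmed reads were aligned to mm10 with Bowtie, uniquely aligned reads were kept without duplicates, and sites were called with DFilter. The submitters' notes also name HOMER, and versions are not given in the sources used here.

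The HB-only regions, gene lists and words were chosen with earlier results of these data known. The reference was GRCm38.p6 (the mm10 build) with RefSeq annotation, from which 26032 TSSs of 21000 genes with curated protein-coding transcripts were taken. Python 3.11.15, numpy 2.4.6, pysam 0.24.0, samtools 1.23.1 and matplotlib 3.10.9 were used, and the calculations were tested on simulated data. Shares carry 95% Wilson and differences 95% Newcombe intervals, and with 1 list per stage there are no p-values. Named by rule were the 10 genes with the most HB-only regions, up to 4 genes per list, all genes with a region in the blood, Hippo and primitive streak lists, list genes with a promoter region, the 10 widest regions and the 5 densest groups, of which 1 is not reported here. Other genes were named after their values were seen. Alternatives changed the overlap, window, site width, TSS set, gene distance, CpG rule, sequence length and word spelling. Isolated regions for gene lists and nearest promoters were added after seeing the data.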

Additional observations from a re-analysis of the deposited data

How the results depend on the processing

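The 57 results were recomputed under 194 alternatives. The count of HB-only regions lay between 3224 and 4329 with other overlaps, with deposited intervals in place of windows or with isolated regions alone, but was 2107 when each list kept its wider sites, from the median up, and 2336 when every list was reduced to its widest sites, as many as HP has. With TSSs of all transcripts, 19.8% were promoter, 46.9% proximal and 33.3% distal. With isolated regions alone, 6.98% were promoter, 61.4% distal and 4.81% CpG-rich, and with wide sites alone 16.7% were promoter and 26.8% proximal. The stricter CpG rule left 6.04% CpG-rich.

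The GATA, TEAD, TCF/LEF and T-box differences from all other regions kept their direction in the central 200 bp, in isolated regions and in wide sites. Reversed spellings, which serve as a comparison for base composition, gave -2.54 points for GATA, -0.564 for TEAD, -0.945 for TCF/LEF, 0.226 for T-box, 3.90 for SOX, 2.29 for RUNX, 0.128 for ETS, 0.220 for PU.1, -2.52 for the E-box CATCTG, -0.208 for the TAL1-GATA composite, 0.397 for forkhead, -2.66 for MEIS, -0.315 for homeobox and 0.221 for MEF2. Words left out of this row include some whose reversed spelling moved like the word. Reversed AP1 words were in 7.36% of HB-only and 9.73% of all other regions, and reversed KLF words in 5.24% and 4.52%. In wide sites the MEIS and KLF differences were -1.03 and -0.251 points, opposite in sign to those over all members, and the cause was not tested. In the central 200 bp, 184 words of 6 bases passed the fold.

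Within 20 kb of a TSS (7.24% of genes with an HB-only region), the genes with one numbered 4 for blood, 3 for endothelial, 2 for Hippo, 11 for Wnt, 7 for BMP and 0 for macrophage, and the shares of regions were 2.53% for Hippo and 0% for macrophage, against 4.49% over all genes. With every gene within 50 kb counted (20.2% of genes), the primitive streak share was 10.6% (4.42% over all genes), and 9 endothelial genes and 1 fibroblast gene had a region. With isolated regions, 2 of 13 endoderm genes had one, against 9.79% of all genes. Promoter sites taken within 2 kb put 74.1% of nearest genes open in HB. No paired analysis was possible because each stage has 1 list.

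The order of the gene lists rests on few regions per list, and assignment to the nearest TSS does not show which gene a region acts on. The lists hold no reads, so the part of depth and sequencing platform was not tested.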
